A study of Mus musculus with 12 samples.

Results

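Among the 16920 genes counted in mouse peritoneal macrophages, 87 differed at least 2-fold between the WT and the Ythdf1 knockout (KO) labels in the same direction without and with lipopolysaccharide (LPS). They were picked by their measured values. A gene was kept where the mean CPM (counts scaled to a library total of 1000000) of the KO-labelled and WT libraries lay at least 2-fold apart under PBS and under LPS, where the 3 and 3 libraries did not overlap under either, and where the higher mean reached 1 CPM under both. Of the 10004 genes with such a higher mean, 94 met these terms. The genes Gdf3, Id3, Marco, Wt1, Myrf, Bcam and Hspg2, which met them too, were set aside by name, as were Smad6, Ifi208, Stab2 and Spag5, which did not. This left 11 genes higher and 76 genes lower in the KO-labelled libraries. The difference between labels is therefore what chose these genes, and it is described below without a test.

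The 12 libraries came in groups of 3. WT cells and cells labelled Ythdf1-/- were each kept for 6 h with PBS or with LPS at 1 µg/mL, so that the groups are WT PBS, KO PBS, WT LPS and KO LPS. The mice were C57BL/6 and 6 to 10 weeks old, and the knockout line had been made with CRISPR/Cas9. The cells had been drawn into the peritoneum with an eliciting agent, which is 6% starch broth for 3 days in the series record and thioglycollate in the methods, and had been cultured overnight before the challenge. The labels call the replicates independent biological replicates but do not name the animals behind them, so the spread between them may be partly technical. Whether the WT mice were littermates of the KO mice used for these cells is not given in the sources used here.

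Ythdf1 encodes a cytoplasmic reader of N6-methyladenosine, a mark on mRNA that recruits proteins acting on translation and decay. Peritoneal macrophages are a mixture of resident cells, which depend on the factor Gata6, and of cells derived from monocytes that enter after an irritant. LPS, a lipid of bacterial outer membranes, is sensed through Toll-like receptor signalling and shifts macrophages from growth and tissue upkeep to inflammatory gene expression.

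Ythdf1 itself (chr2:180904377-180920936, GRCm38.p6) checks the labels. Its mRNA stood at 54.9, 57.1 and 53.3 CPM in WT PBS against 72.8, 76.1 and 75.9 CPM in KO PBS, and at 167, 159.9 and 157 CPM in WT LPS and 148, 145 and 153 CPM in KO LPS. No loss of Ythdf1 mRNA was seen in the libraries labelled KO. A deletion that leaves the mRNA and a wrong label cannot be told apart by a count over the whole gene, so the grouping rests on the labels.

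Total counts lay between 21546274 and 22017005 per library, and the floor of 3 counts used here stood at 0.136 to 0.139 CPM. The members took 0.562% to 0.575% of all counts in WT PBS, 0.250% to 0.256% in KO PBS, 0.323% to 0.356% in WT LPS and 0.154% to 0.164% in KO LPS libraries. WT LPS replicate 1 stood apart from its group, with a mean chi-square per gene of 32.8 and 25.5 against replicates 2 and 3, which differed from each other by 3.08. KO LPS replicates 2 and 3 differed by 16.7. The 12 general macrophage genes summed to 24009 to 24997 CPM in WT PBS, 26455 to 26797 in KO PBS, 16416 to 18644 in WT LPS and 16202 to 17845 in KO LPS libraries, so markers of the labelled cell type were abundant throughout. Skeletal muscle mRNA was present too and differed between groups, as given with the muscle genes.

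Most of the lower members fell into a few roles, of which cell division was the largest with 16 genes. Genes of mitosis are switched on late in the cell cycle, through promoters that often hold a CHR (cell cycle genes homology region) and CCAAT boxes. RefSeq promoter windows of GRCm38.p6, from 250 bases before to 50 bases after a gene's start, were found for 66 of the 87 members. The windows of Ccnb2 (cyclin B2, chr9:70421505-70421804, minus strand), Cdk1 (chr10:69352863-69353162, minus strand) and Plk1 (chr7:122159185-122159484, plus strand) are shown because these genes act together at the entry into mitosis and were lower together. Each runs 5′ to 3′ on the strand of its gene, and capitals mark the letters TTTGAA and CCAAT on either strand.
Ccnb2: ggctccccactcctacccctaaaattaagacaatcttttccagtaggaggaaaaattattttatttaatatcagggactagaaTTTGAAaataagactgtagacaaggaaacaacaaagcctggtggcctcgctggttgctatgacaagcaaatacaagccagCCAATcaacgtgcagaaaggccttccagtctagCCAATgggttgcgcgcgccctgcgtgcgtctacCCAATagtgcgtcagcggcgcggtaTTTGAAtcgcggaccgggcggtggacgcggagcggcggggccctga
Cdk1: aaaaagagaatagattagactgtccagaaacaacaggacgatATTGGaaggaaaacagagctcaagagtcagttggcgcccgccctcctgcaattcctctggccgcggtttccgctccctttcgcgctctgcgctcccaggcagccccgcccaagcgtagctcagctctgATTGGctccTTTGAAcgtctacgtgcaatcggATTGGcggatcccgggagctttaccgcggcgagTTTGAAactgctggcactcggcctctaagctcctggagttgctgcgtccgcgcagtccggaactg
Plk1: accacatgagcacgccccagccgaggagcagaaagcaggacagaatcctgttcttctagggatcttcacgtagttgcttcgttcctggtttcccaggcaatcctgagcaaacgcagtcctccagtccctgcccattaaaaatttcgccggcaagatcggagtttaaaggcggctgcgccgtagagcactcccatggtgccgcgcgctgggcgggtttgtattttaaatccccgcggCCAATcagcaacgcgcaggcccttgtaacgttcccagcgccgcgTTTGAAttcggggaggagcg
The CHR letters TTTGAA, or TTCAAA on the other strand, began at bases -167 and 5 of Ccnb2, -71 and -15 of Cdk1 and 31 of Plk1, counted from the start site.

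Of the 14 windows of 13 cell division members, 9 held the CHR letters on one or the other strand, against 17.9% of all 32851 windows of this length. These windows belonged to Ccnb2, Cdca3, Cdk1, Ect2, Kif22, Plk1, Racgap1 and Ube2c. The letters CCAAT, or ATTGG on the other strand, stood in 12 of the 14 windows, against 37.4% of all windows. Over the members as a whole the shares were 17.4% for CHR and 36.0% for CCAAT, which were close to those of all windows. The sterol response letters TCACNCCAC stood in none of the 6 windows of lipid members and in 1.24% of all windows. These windows covered 4 of the 6 lipid members and not Scd2. With letters this rare, none in 6 windows says little. The cyclic AMP response letters TGACGTCA stood in 4 of the 86 windows of members and in 1.79% of all windows. A match of letters is a description of the window and not a bound site.

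**Figure D1:**
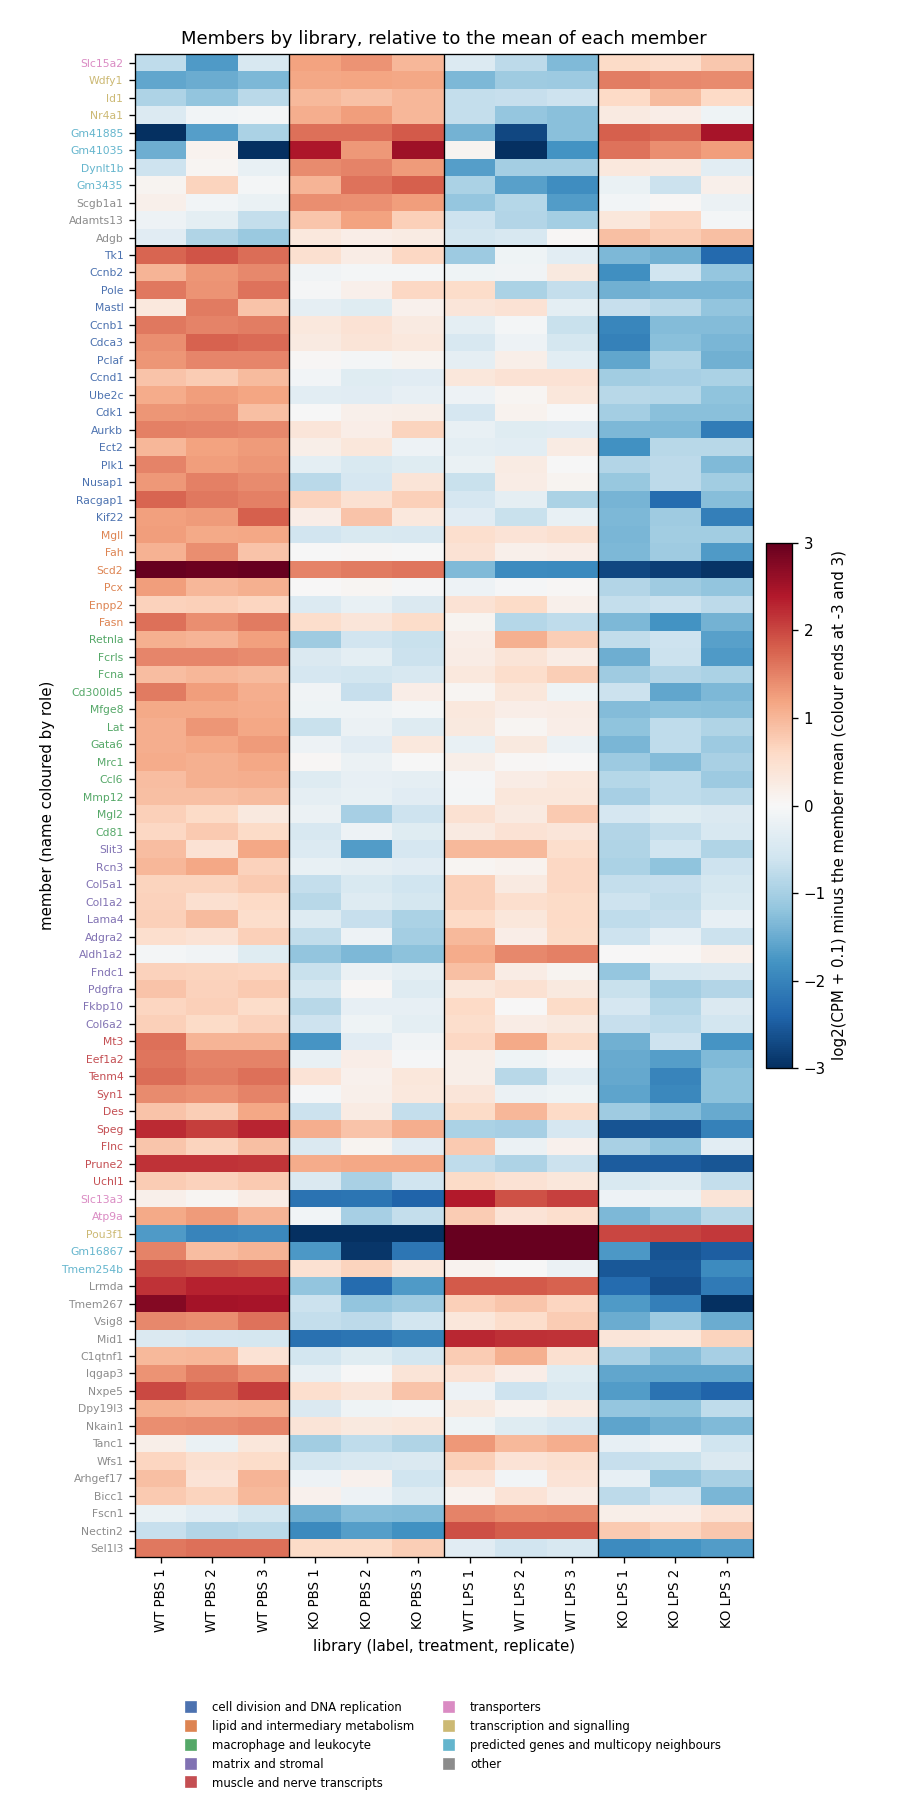
Each row is a member (86 of them drawn) and each column a library, coloured by log2(CPM + 0.1) minus the mean of that member, with colours ending at -3 and 3. Names are coloured by role, the 11 members higher by the KO label stand above the line and 75 lower ones below it, and every row changes colour between the WT and KO columns of a treatment because the genes were chosen so.

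The size of the differences was modest for most members. Among the 76 lower members the median fold was 2.42 under PBS and 2.38 under LPS, and 50 of them lay under 3-fold in both. Among the 11 higher members the median was 3.13 under PBS and 2.71 under LPS. A difference of at least 5-fold under both treatments was held by 3 higher members (Gm41885, Gm41035 and Wdfy1) and 3 lower ones (Lrmda, Gm16867 and Tmem267). The difference was wider under LPS in 43 of the 76 lower members and in 3 of the 11 higher ones. At the limit, Kif22 and Cd81 (each 2.003-fold under PBS) and Racgap1 (2.004-fold) were just inside, and Slc45a3 (1.990-fold under PBS), Scamp5 (1.986-fold under PBS) and Adam12 (1.984-fold under LPS) were just outside. Over the 10004 genes, 0.130% were higher and 0.810% were lower by these terms before any was set aside, a share that the rule itself set. Under PBS alone 64 genes (0.580%) were higher and 236 (2.14%) lower of 11029, and under LPS alone 101 (0.978%) were higher and 321 (3.11%) lower of 10327. Serpinb2 was the only gene that met the terms in opposite directions, lower in KO-labelled PBS and higher in KO-labelled LPS libraries.

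**Figure D2:**
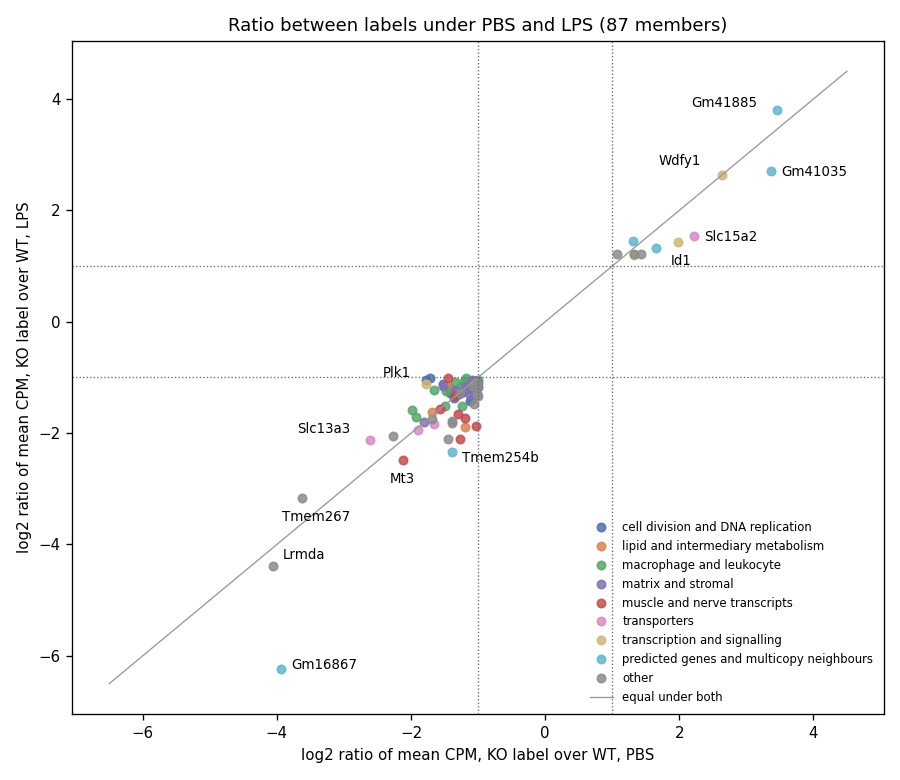
The log2 ratio of mean CPM, KO label over WT, is plotted under LPS (vertical) against PBS (horizontal) for the 87 members, coloured by role, with dotted lines at the 2-fold limits and a grey line where the ratios are equal. Most members sit close to the limits, and Lrmda, Gm16867, Tmem267, Wdfy1, Gm41885 and Gm41035 sit apart from the rest.

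Of the genes higher in KO-labelled libraries, Wdfy1 had the highest level. It encodes an endosomal protein that takes part in Toll-like receptor signalling. It gave 9.65, 10.1 and 11 CPM in WT PBS against 64.1, 64.3 and 63.9 CPM in KO PBS. With LPS the values were 11, 13.4 and 13.3 CPM in WT against 82.8, 77.4 and 75.5 CPM in KO cells. The KO-labelled libraries stood 6.24-fold and 6.23-fold higher, with a narrow spread in each group. Its neighbour Mrpl44, whose span overlaps the edge of Wdfy1 on chromosome 1 and whose reads could have been shared with it, gave group means of 17.4 and 17.0 CPM under PBS and 13.9 and 14.3 CPM with LPS.

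Wdfy1 is among the genes whose mRNA is known to differ between C57BL/6 substrains, and 8 such genes were in the table. Of the 6 tested beside Wdfy1, 1 was higher and 2 were lower in the KO-labelled libraries under PBS, and 1 was higher and 3 were lower under LPS. Nnt, a mitochondrial transhydrogenase, had PBS means of 22.9 CPM for WT and 50.5 for KO, and LPS means of 9.08 and 13.8 CPM. Without Wdfy1, the summed level of these genes was 309 to 324 CPM in WT PBS, 299 to 312 in KO PBS, 104 to 134 in WT LPS and 87.2 to 98.5 in KO LPS libraries, and Nlrp12 lay at or under the floor throughout. Genes that go opposite ways cancel in such a sum, so it does not show how far the single genes differ. The label and any difference in genetic background between the mice cannot be told apart in this design, and the part of the latter in the members was not tested.

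A pair of predicted genes without a position in the gene table followed. Gm41885 gave 0.44, 1.4 and 2.33 CPM in WT PBS against 14.8, 14.6 and 16.7 CPM in KO PBS, and 1.66, 0.612 and 1.87 CPM in WT LPS against 16.4, 15.4 and 26.2 CPM in KO LPS. Gm41035 gave 0.391, 1.35 and 0 CPM in WT PBS against 7.12, 3.2 and 7.77 CPM in KO PBS, and 1.33, 0 and 0.29 CPM in WT LPS against 4.07, 3.43 and 3.11 CPM in KO LPS. Their folds were 11 and 14 for Gm41885 and 10.4 and 6.55 for Gm41035. The WT values spread over several fold, and a WT library of each treatment held no count of Gm41035. Both had decimals in the deposited counts, which arise where reads are shared between genes. This held for 8 of the 11 higher members and 21 of the 76 lower ones, against 39.8% of the 10004 genes.

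Dynlt1b, a light chain of the dynein motor, lies on chromosome 17 and has near copies. It gave 10.2, 16.2 and 13.4 CPM in WT PBS against 42.3, 44.2 and 38.1 CPM in KO PBS, and 4.88, 7.71 and 7.7 CPM in WT LPS against 19.5, 18.7 and 12.6 CPM in KO LPS. When the 4 Dynlt1 copies were summed, which was chosen after seeing the data, as were the other sums over near copies, the folds were 1.92 and 1.19 and the limit was no longer met. Gm3435, a predicted gene on the same chromosome with decimals in the counts of every library, gave 1.24, 1.91 and 1.12 CPM in WT PBS, 2.45, 3.81 and 4.32 in KO PBS, 0.556, 0.307 and 0.248 in WT LPS and 1.01, 0.714 and 1.3 in KO LPS. Its groups were close to overlapping under LPS, where the lowest KO-labelled library stood little above the highest WT one. Both genes are therefore uncertain as single genes.

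Slc15a2, a proton-coupled transporter of short peptides including bacterial ones, gave 0.851, 0.396 and 1.06 CPM in WT PBS against 3.63, 4.03 and 3.1 CPM in KO PBS. In LPS cultures it gave 1.11, 0.838 and 0.543 CPM in WT against 2.29, 2.2 and 2.73 CPM in KO cells. It was 4.67-fold higher under PBS and 2.89-fold higher under LPS. Its counts also carried decimals in every library.

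The transcriptional regulators Id1 and Nr4a1 were higher as well. Id1, an inhibitor of basic helix-loop-helix factors and a classical target of bone morphogenetic protein signalling, gave 1.73, 1.41 and 1.86 CPM in WT PBS against 6.67, 6.21 and 6.8 CPM in KO PBS. After LPS it stood at 2.0, 2.02 and 2.14 CPM in WT against 5.11, 6.52 and 5.09 CPM in KO cells. Nr4a1, an orphan nuclear receptor induced early by many signals, gave 1.86, 2.36 and 2.41 CPM in WT PBS, 5.47, 6.07 and 5.09 in KO PBS, 1.5, 1.06 and 1.0 in WT LPS and 3.02, 2.92 and 2.27 in KO LPS. Neither gene had a KO-labelled library within the WT range. In counts over the other genes of a list, here and below, the members and the 11 genes set aside by name are left out. In a list of bone morphogenetic protein and transforming growth factor beta signalling genes, 32 other genes were tested, of which 7 were higher and 6 lower under PBS and 10 were higher and 6 lower under LPS, with medians of 0.014 and -0.0036 on the log2 scale. Over all 12064 genes tested for the KO against the WT label, 12.3% were higher and 13% lower under PBS, and 22.1% were higher and 19.3% lower under LPS.

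The remaining higher members were of low level. Scgb1a1, a secretoglobin best known from airway club cells, gave 2.05, 1.73 and 1.59 CPM in WT PBS, 4.97, 4.92 and 4.53 in KO PBS, 0.772, 0.966 and 0.501 in WT LPS and 1.72, 1.9 and 1.62 in KO LPS. Adamts13, the protease that trims von Willebrand factor, gave 2.5, 2.26 and 1.66 CPM in WT PBS, 5.0, 6.58 and 4.61 in KO PBS, 1.78, 1.47 and 1.32 in WT LPS and 3.57, 4.34 and 2.66 in KO LPS. Adgb, an androglobin gene known mainly from ciliated and germ cells, gave 1.32, 0.864 and 0.728 CPM in WT PBS, 2.13, 1.98 and 2.04 in KO PBS, 1.14, 1.2 and 1.73 in WT LPS and 3.25, 2.96 and 3.28 in KO LPS. Each was higher in all KO-labelled libraries by 2.11 to 2.69-fold under PBS.

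**Figure D3:**
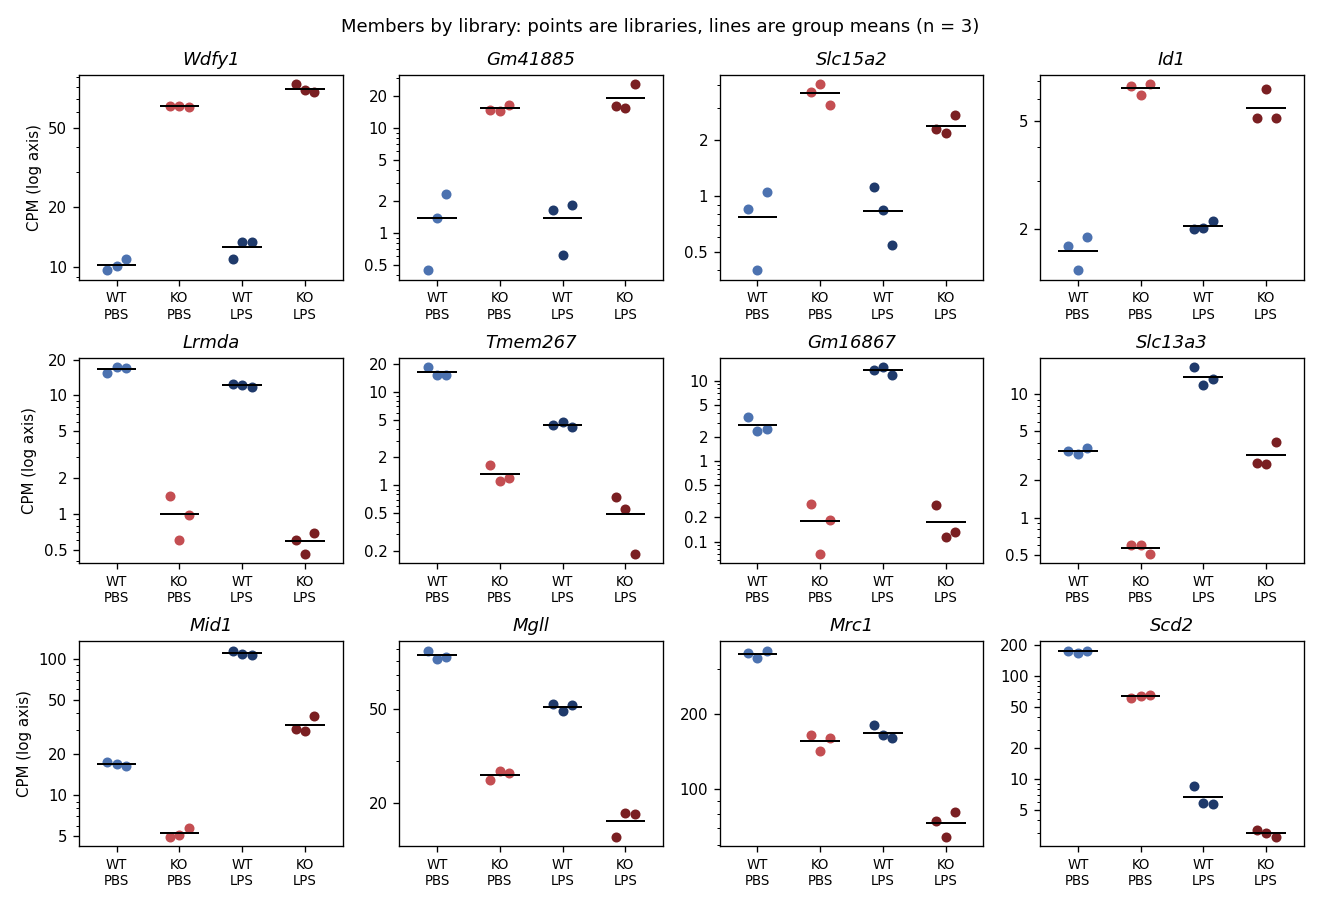
CPM by library on a log axis for 12 members, with points for libraries and lines for group means of 3 libraries. The top row holds higher members and the other rows lower members, and in no panel do the WT and KO points of a treatment overlap. Mean levels run from 0.178 ± 0.0966 CPM (mean ± SD) for Gm16867 in KO LPS to 346 ± 11.1 CPM for Mrc1 in WT PBS.

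The lower members were led by Lrmda, a gene of melanocyte differentiation with leucine-rich repeats. It gave 15.6, 17.3 and 17.2 CPM in WT PBS against 1.43, 0.598 and 0.972 CPM in KO PBS, and 12.4, 12.3 and 11.8 CPM in WT LPS against 0.603, 0.463 and 0.694 CPM in KO LPS. The folds were 16.7 and 20.8. Every KO-labelled library was far below every WT library, yet above the floor.

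Tmem267, a transmembrane protein of unknown role, gave 18.3, 15.2 and 15.1 CPM in WT PBS against 1.66, 1.1 and 1.2 CPM in KO PBS. Its LPS values were 4.36, 4.78 and 4.19 CPM in WT against 0.743, 0.555 and 0.185 CPM in KO cells. The folds were 12.3 and 8.99, in the direction opposite to that of Nnt, which ends 78.8 kb away on chromosome 13.

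Gm16867, a predicted gene of chromosome 14, starts within the span of Entpd4, a lysosomal nucleotidase with near copies in the region, so that reads could have been shared between them. It gave 3.52, 2.36 and 2.51 CPM in WT PBS against 0.292, 0.0709 and 0.185 CPM in KO PBS, and 13.7, 14.6 and 11.9 CPM in WT LPS against 0.289, 0.113 and 0.131 CPM in KO LPS. The KO-labelled LPS libraries held only 6.22, 2.45 and 2.83 counts, so the fold of 75.4 rests on few reads, as does the 15.3 under PBS. Summed with Entpd4 and Entpd4b, the folds were 1.51 under PBS and 3.88 under LPS, and the 2-fold limit was no longer met. Tmem254b, also on chromosome 14 and with near copies, gave 29, 27.4 and 26.7 CPM in WT PBS, 10.3, 12 and 9.45 in KO PBS, 8.08, 7.45 and 6.61 in WT LPS and 1.21, 1.21 and 1.94 in KO LPS. Summed over its 3 copies it still met the limit, at 2.60-fold and 4.79-fold.

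Transporters were among the lower members. Slc13a3, a sodium-coupled carrier of dicarboxylates that also takes up itaconate, gave 3.46, 3.27 and 3.64 CPM in WT PBS against 0.598, 0.598 and 0.509 CPM in KO PBS. LPS libraries gave 16.5, 12 and 13.2 CPM in WT against 2.78, 2.73 and 4.07 CPM in KO cells. It was 6.08-fold and 4.35-fold lower, and the KO-labelled libraries with LPS came near the level of WT libraries under PBS. Atp9a, a lipid flippase of endosomes, gave 1.75, 1.95 and 1.61 CPM in WT PBS, 0.69, 0.322 and 0.416 in KO PBS, 1.32, 1.01 and 1.09 in WT LPS and 0.231, 0.285 and 0.37 in KO LPS. Its groups were apart under each treatment, at a low level in every library.

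The position of the members was compared with that of Ythdf1. Of the 85 members with a position, Eef1a2 alone lay within 10 Mb of Ythdf1, at 220.8 kb, among 62 genes compared. Eef1a2, a translation elongation factor of muscle and neurons, gave 14.6, 13.3 and 13.3 CPM in WT PBS against 4.0, 5.38 and 4.58 CPM in KO PBS, and 5.36, 4.28 and 4.55 CPM in WT LPS against 1.58, 1.43 and 1.8 CPM in KO LPS. Within 20 Mb lay Atp9a, Eef1a2, Slc13a3 and Ube2c, 3.15% of 127 genes, against 0.852% of all 9976 genes with a position. Chromosome 2 held 12 members and chromosome 7 held 12, which are 14.1% of the positioned members each, beside 8.10% and 7.68% of the genes. There were 7 pairs of members within 1 Mb of each other, the closest being Des and Speg, 6.72 kb apart on chromosome 1.

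In the cell division group the members spanned several steps. Tk1, Pole and Pclaf act in nucleotide supply and DNA replication, Ccnd1 is a cyclin of the early cycle, and Ccnb1, Ccnb2, Cdk1, Plk1, Aurkb, Mastl, Ube2c, Cdca3, Nusap1, Racgap1, Ect2 and Kif22 act in mitosis and in the division of the cell. Cdk1, the kinase that drives entry into mitosis, gave 7.69, 7.82 and 5.68 CPM in WT PBS against 2.99, 3.36 and 3.42 CPM in KO PBS. In the presence of LPS it gave 2.09, 3.22 and 2.96 CPM in WT against 1.44, 1.2 and 1.2 CPM in KO cells. The level was thus highest in WT PBS and lowest in KO LPS libraries.

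Its partner cyclin B1 (Ccnb1) gave 8.1, 7.64 and 7.91 CPM in WT PBS, 3.31, 3.59 and 3.19 in KO PBS, 2.13, 2.53 and 1.64 in WT LPS and 0.603, 1.02 and 1.02 in KO LPS. Plk1, a kinase of the mitotic spindle, gave 7.82, 6.59 and 6.96 CPM in WT PBS, 2.21, 1.93 and 2.08 in KO PBS, 2.36, 3.22 and 2.69 in WT LPS and 1.44, 1.53 and 1.02 in KO LPS. Ube2c, the ubiquitin-conjugating enzyme that serves the exit from mitosis, gave 6.2, 6.79 and 6.44 CPM in WT PBS, 2.22, 2.21 and 2.36 in KO PBS, 2.5, 2.93 and 3.59 in WT LPS and 1.52, 1.5 and 1.15 in KO LPS. None of these had overlapping WT and KO-labelled libraries, and Plk1 was further apart under PBS (3.43-fold) than under LPS (2.08-fold). Over the 16 genes the folds ran from 2.003 to 3.43 under PBS and from 2.02 to 2.67 under LPS.

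The wider cell cycle list, written with earlier results of these data known, held 40 genes, all of them tested, and 7 were members. Of its 32 other genes, 26 were lower and 1 was higher in the KO-labelled libraries under PBS, with a median of -0.90 on the log2 scale. Under LPS 12 were lower and 4 higher, with a median of -0.37. The summed level of the 40 genes was 569, 592 and 583 CPM in WT PBS against 449.5, 446 and 452 CPM in KO PBS, so the groups stood apart. With LPS it was 303, 341 and 338 CPM in WT against 315, 316 and 312 CPM in KO cells, and the groups overlapped.

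Enzymes of lipid and intermediary metabolism formed a further group of 6 lower members. Mgll, the lipase of monoacylglycerols, gave 88.7, 81.9 and 83.1 CPM in WT PBS against 24.9, 27.2 and 26.7 CPM in KO PBS. With LPS it gave 52.6, 49 and 51.9 CPM in WT against 14.3, 18.1 and 17.8 CPM in KO cells. The fold was 3.22 under PBS and 3.06 under LPS. Scd2, a desaturase that makes monounsaturated fatty acids, gave 178, 169 and 178 CPM in WT PBS against 61.6, 64.8 and 66.5 CPM in KO PBS, and 8.67, 5.86 and 5.78 CPM in WT LPS against 3.21, 3.03 and 2.75 CPM in KO LPS. The sum over the 4 Scd genes stood 2.71-fold apart under PBS and 1.985-fold under LPS, just short of the limit. Fasn, the fatty acid synthase, averaged 82.3 ± 7.01 CPM in WT PBS against 39.5 ± 2.77 CPM in KO PBS (SD, n = 3). Enpp2 (autotaxin), Pcx (pyruvate carboxylase) and Fah (of tyrosine breakdown) completed the group, with folds of 2.11, 2.22 and 2.28 under PBS.

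Among the 12 macrophage and leukocyte members were the most abundant mRNAs of the set. Mmp12, the macrophage elastase, averaged 2139.8 ± 39.9 CPM in WT PBS against 929 ± 34.4 CPM in KO PBS, and 1315 ± 197 and 625 ± 52.1 CPM with LPS. Mfge8, a bridge for the uptake of dying cells, averaged 1007 ± 8.02 and 425 ± 11.4 CPM under PBS and 543 ± 22.5 and 191 ± 5.26 CPM with LPS. The chemokine gene Ccl6 averaged 847 ± 51.8 and 335 ± 15.3 CPM under PBS. Most members were far below these levels, and 51 of the 87 averaged under 5 CPM over the 4 groups.

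Mrc1, the mannose receptor and a marker of macrophages derived from monocytes, gave 348, 335 and 357 CPM in WT PBS against 164, 143 and 159.6 CPM in KO PBS. In LPS cultures it gave 180.1, 164 and 159 CPM in WT against 74.9, 64.7 and 81.1 CPM in KO cells. Retnla, a secreted protein of alternatively activated macrophages, gave 5.64, 5.45 and 6.28 CPM in WT PBS, 1.2, 1.75 and 1.62 in KO PBS, 3.04, 5.61 and 4.46 in WT LPS and 1.53, 1.67 and 0.786 in KO LPS. Fcrls, an Fc receptor-like scavenger protein, gave 4.87, 4.91 and 4.77 CPM in WT PBS, 1.24, 1.38 and 1.06 in KO PBS, 2.0, 2.25 and 2.0 in WT LPS and 0.557, 1.06 and 0.463 in KO LPS. All KO-labelled libraries lay below the WT range for these genes.

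Other markers of macrophages derived from monocytes were divided. Of the 10 further genes tested, 2 were higher and 2 lower under PBS, with a median of -0.02, and 2 were higher and 1 was lower under LPS, with a median of 0.17. Gata6, the factor on which resident peritoneal macrophages depend, gave 3.27, 3.45 and 3.73 CPM in WT PBS against 1.33, 1.15 and 1.9 CPM in KO PBS, and 1.27, 1.84 and 1.32 CPM in WT LPS against 0.511, 0.833 and 0.648 CPM in KO LPS. Of the 17 other resident macrophage markers tested, 9 were lower and 2 higher under PBS and 7 were lower and 2 higher under LPS. Their list summed to 3284, 3043 and 3057 CPM in WT PBS against 2623, 2627 and 2756 CPM in KO PBS, and to 2959, 2622 and 2696 CPM in WT LPS against 2426, 2399.8 and 2502 CPM in KO LPS. Lyve1 lay at or under the floor. In bulk RNA, fewer cells of a type and less RNA per cell cannot be told apart, and the part of cell composition in these members was not tested.

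The remaining macrophage and leukocyte members were Fcna (ficolin A, a lectin of complement activation), Cd300ld5, Lat (an adaptor of T cell and mast cell receptors), Mgl2 (a galactose lectin) and Cd81 (a tetraspanin). Their folds lay between 2.003 and 3.16 under PBS. Summed with near copies, Cd300ld5 came to 1.62-fold and 2.09-fold, and Mgl2 with Clec10a to 1.22-fold and 2.18-fold, so neither met the limit as a family. Lat averaged 4.08 ± 0.334 CPM in WT PBS. The 12 markers of T and NK cells summed to 3.66 to 4.42 CPM in WT PBS, 3.20 to 4.31 in KO PBS, 8.89 to 11.6 in WT LPS and 4.17 to 4.87 in KO LPS, with Cd3d, Cd3e, Cd3g, Gzmb, Ncr1 and Prf1 at or under the floor. Most of the sum under LPS was Lck, a kinase of T cell receptor signalling, with means of 8.23 CPM in WT and 2.98 CPM in KO cells, whereas Cd4, Cd8a and Cd2 had lower means with LPS than with PBS under each label. The part of T and NK cells in the difference of Lat was not tested.

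Fscn1, an actin-bundling protein of mature dendritic cells, was counted apart from these. It gave 19.7, 18.3 and 15.7 CPM in WT PBS against 8.09, 9.29 and 9.07 CPM in KO PBS, and 63.3, 59.1 and 60.4 CPM in WT LPS against 25.4, 26.1 and 30.3 CPM in KO LPS. Of the 6 other dendritic cell markers tested, 5 were lower under PBS and 1 was lower under LPS. Siglech lay at or under the floor. The 12 markers summed to 443, 425 and 446 CPM in WT PBS against 226, 220.0 and 225 CPM in KO PBS, and to 357, 318 and 340.1 CPM in WT LPS against 153, 151 and 172 CPM in KO LPS. Most of each sum was Itgax, an integrin that macrophages express too, with group means of 417 and 213 CPM under PBS and 266 and 119.7 CPM with LPS. The fitted log2 differences of the 6 under LPS, KO label against WT, were -1.06 for Itgax, -0.86 for Batf3, -0.39 for Zbtb46, -0.22 for Kmo, 0.20 for Ccr7 and 0.55 for Xcr1. The part of dendritic cells in the difference of Fscn1 was not tested.

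Matrix and stromal genes, which macrophages express little, made up 11 lower members. Col1a2, a chain of type I collagen, gave 45.3, 38.9 and 42.4 CPM in WT PBS against 15.7, 21.4 and 19.2 CPM in KO PBS. After LPS it stood at 45.5, 39.9 and 41.4 CPM in WT against 18.1, 16.7 and 20.1 CPM in KO cells. The groups were apart by 2.25-fold and 2.31-fold. Pdgfra, the receptor that marks fibroblasts, gave 13, 11.5 and 12.3 CPM in WT PBS, 4.87, 7.27 and 5.41 in KO PBS, 9.04, 9.71 and 8.74 in WT LPS and 4.41, 3.47 and 3.84 in KO LPS. Col5a1, a chain of type V collagen, gave 6.54, 6.55 and 7.09 CPM in WT PBS, 2.42, 2.9 and 2.64 in KO PBS, 6.68, 4.88 and 6.25 in WT LPS and 2.43, 2.45 and 2.77 in KO LPS. Col6a2, a chain of type VI collagen, gave 5.41, 4.86 and 5.28 CPM in WT PBS, 2.07, 2.94 and 2.64 in KO PBS, 4.72, 3.82 and 4.01 in WT LPS and 1.95, 1.85 and 2.17 in KO LPS. For each, the highest KO-labelled library lay below the lowest WT library.

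Slit3, a secreted guidance protein of mesenchymal cells, gave 1.91, 1.32 and 2.27 CPM in WT PBS, 0.69, 0.23 and 0.648 in KO PBS, 1.95, 1.98 and 1.41 in WT LPS and 0.464, 0.602 and 0.463 in KO LPS. Aldh1a2, which makes retinoic acid and marks mesothelium, gave 4.32, 4.14 and 3.46 CPM in WT PBS against 1.93, 1.7 and 1.85 CPM in KO PBS, and 9.9, 12.3 and 13 CPM in WT LPS against 4.55, 4.63 and 5.0 CPM in KO LPS. Its level was higher in the LPS than in the PBS libraries of each label. Lama4 (laminin), Fndc1, Fkbp10 and Rcn3 (helpers of collagen folding in the endoplasmic reticulum) and Adgra2 (an adhesion receptor) differed by 2.11 to 2.88-fold under PBS.

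In a wider list of fibroblast and matrix genes more genes were lower than higher, though its sums overlapped under LPS. Of its 31 other genes tested, 17 were lower and 1 was higher under PBS (median -0.69 on the log2 scale), and 16 were lower and 3 higher under LPS (median -0.50). The 45 genes summed to 2179, 1864 and 2043 CPM in WT PBS against 1715, 1755 and 1812 CPM in KO PBS. With LPS the sums were 3741, 2554 and 2791 CPM in WT and 3485, 2963 and 3759.6 CPM in KO-labelled cells, which overlapped. A few genes carried these sums. Thbs1 had means of 990 CPM in WT LPS and 1803 in KO LPS and Vcan of 440 and 489, whereas Fn1 had means of 1216 and 819 CPM. Lum lay at or under the floor in every library. Of 23 other mesothelial markers tested, 6 were lower and 1 was higher under PBS and 5 were lower and 3 higher under LPS. The sums over the other markers of that list ran from 746 to 783 CPM in WT PBS, 668 to 704 in KO PBS, 1094 to 1166 in WT LPS and 1072 to 1090.0 in KO LPS libraries, with Cldn15, Krt5, Muc16 and Tbx18 at or under the floor. The part of admixed stromal or mesothelial cells in the members was not tested.

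**Figure D4:**
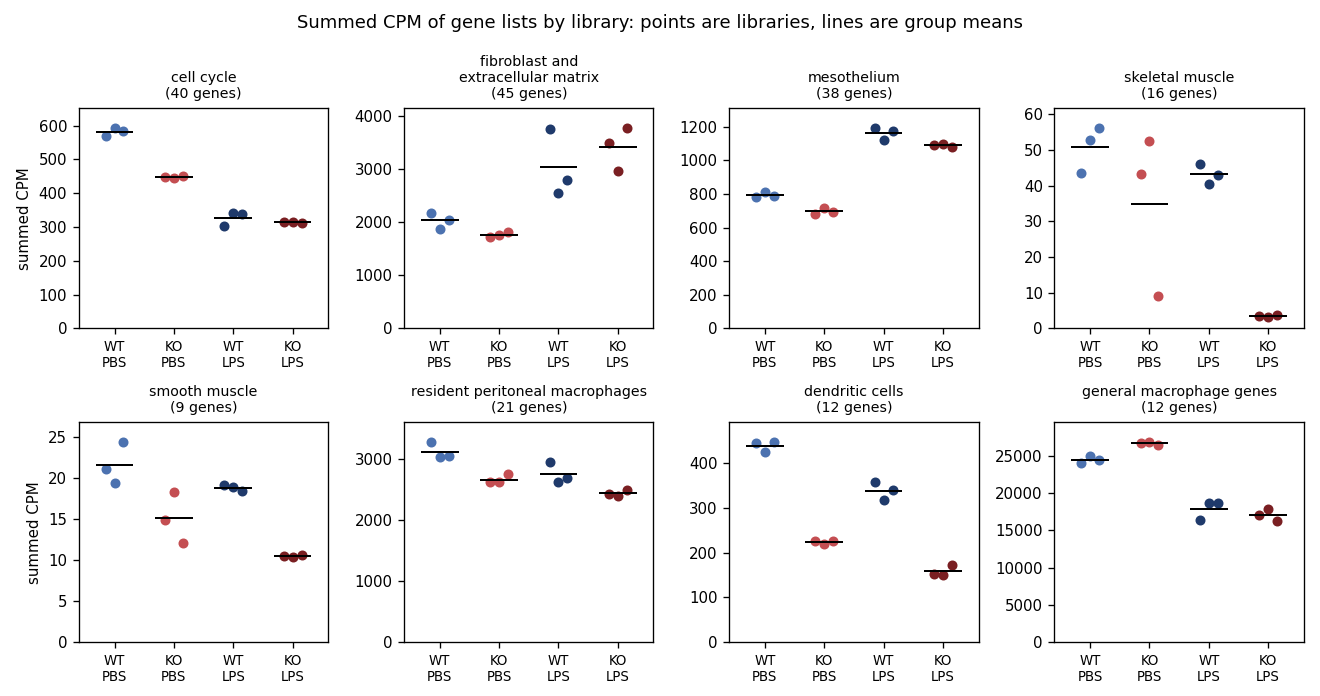
Summed CPM of 8 gene lists by library, on axes from 0, with points for libraries and lines for group means. The skeletal muscle sum is between 40.6 and 56.1 CPM in all WT libraries, between 9.12 and 52.5 CPM in KO PBS libraries and at most 3.64 CPM in KO LPS libraries, whereas the general macrophage genes keep the same order of size in all groups.

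Genes known from muscle and nerve formed a group of 9 lower members. Des (desmin, an intermediate filament of muscle) gave 5.41, 5.0 and 6.73 CPM in WT PBS against 1.84, 3.5 and 1.76 CPM in KO PBS. Its LPS values were 4.45, 5.98 and 4.46 CPM in WT against 1.35, 1.16 and 0.971 CPM in KO cells. The fold was wider under LPS (4.29) than under PBS (2.42). Speg, a muscle kinase next to Des, gave 17, 15 and 17.6 CPM in WT PBS, 7.59, 6.44 and 7.59 in KO PBS, 1.77, 1.7 and 2.46 in WT LPS and 0.498, 0.509 and 0.786 in KO LPS. Prune2, a gene of brain and muscle, gave 23.6, 23.7 and 23.4 CPM in WT PBS, 11.4, 11.7 and 11.7 in KO PBS, 3.04, 2.67 and 3.28 in WT LPS and 0.835, 0.833 and 0.786 in KO LPS. The LPS libraries of both lay far below the PBS libraries whatever the label. Mt3, a metallothionein of the brain, gave 1.96, 1.23 and 1.23 CPM in WT PBS, 0.092, 0.414 and 0.509 in KO PBS, 0.908, 1.33 and 0.865 in WT LPS and 0.139, 0.324 and 0.0925 in KO LPS. The KO-labelled LPS libraries held 3, 7 and 2 counts of Mt3, at or near the floor in all but replicate 2.

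Skeletal muscle mRNA differed between these libraries. The 16 muscle markers, of which none was a member, summed to 43.5, 52.9 and 56.1 CPM in WT PBS against 43.4, 52.5 and 9.12 CPM in KO PBS. With LPS they summed to 46, 40.6 and 43 CPM in WT against 3.62, 3.15 and 3.64 CPM in KO cells. All 16 were lower by the KO label under LPS in the edgeR test. Under PBS KO-labelled replicate 3 stood low, and the other KO-labelled libraries lay within the WT range or beside it. Under PBS, Des was low in KO-labelled replicate 1 as well as in replicate 3. With LPS all KO-labelled libraries lay below all WT libraries both for Des and for the muscle sum. Without Des, the smooth muscle markers summed to 14.4 to 17.7 CPM in WT PBS, 10.4 to 14.8 in KO PBS, 12.9 to 14.7 in WT LPS and 9.16 to 9.61 in KO LPS libraries, with Cnn1, Lmod1 and Myh11 at or under the floor. Of the 3 other smooth muscle markers tested, 1 was lower under PBS, and 2 were lower and 1 higher under LPS. The part of admixed muscle in Des, Speg and Flnc (filamin C) was not tested. Tenm4, Syn1 and Uchl1, known from neurons, had folds of 2.53, 2.46 and 2.73 under PBS.

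Further lower members belonged to no such group. Vsig8, a cell surface protein with immunoglobulin domains, gave 5.28, 5.14 and 6.05 CPM in WT PBS, 1.1, 1.06 and 1.25 in KO PBS, 2.41, 2.76 and 3.28 in WT LPS and 0.603, 0.833 and 0.601 in KO LPS. Mid1, a ubiquitin ligase bound to microtubules, gave 17.6, 16.9 and 16.5 CPM in WT PBS against 4.96, 5.15 and 5.74 CPM in KO PBS, and 115, 109 and 107 CPM in WT LPS against 30.5, 29.5 and 38 CPM in KO LPS. The difference of Mid1 held at 3.21-fold and 3.37-fold although its level changed several fold with LPS. In C57BL/6 mice Mid1 spans the boundary of the pseudoautosomal region of the X chromosome, and its counts carried decimals in 10 of the 12 libraries. Pou3f1, a POU-domain transcription factor, gave 1.14, 0.909 and 0.955 CPM in WT PBS, 0.276, 0.322 and 0.278 in KO PBS, 33.7, 40.6 and 34.3 in WT LPS and 16.1, 16.2 and 17.4 in KO LPS. The other genes were C1qtnf1, Iqgap3, Nxpe5, Dpy19l3, Nkain1, Tanc1, Wfs1, Arhgef17, Bicc1, Nectin2 and Sel1l3. Wfs1, of the endoplasmic reticulum, was the most abundant of these, at 235 ± 12.5 CPM in WT PBS against 114 ± 4.9 CPM in KO PBS (SD, n = 3).

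The response to LPS was measured next. It was averaged over the labels, a contrast other than the 2 differences that chose the genes. The same libraries and a limit on their level served the choice, however, and the spread of some members differed between labels (Lrmda, SE of the log2 response 0.105 in WT and 0.301 by the KO label), so the response is not wholly independent of it. It was tested over all 12064 genes that passed a filter on low counts, with edgeR and libraries scaled by the trimmed mean of M values (TMM). All 87 members passed that filter. Of these, 30 were higher and 34 lower with LPS and 23 did not pass, beside 40.3% higher and 43.9% lower among all genes tested. In either direction 64 members (73.6%) passed, beside 84.3% of all genes. The median log2 fold change was 0.01 over the members and -0.05 over all genes.

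The direction depends on the scaling. LPS libraries had TMM factors of 0.744 to 0.808 and PBS libraries of 1.26 to 1.31. With totals alone, the scale of the CPM values above, the median of all genes moved by -0.73 log2 units, and 10 members were higher and 59 lower, beside 19.3% higher and 71.5% lower among all genes. Upper-quartile scaling moved it by -0.33, with 18 members higher and 45 lower, beside 28.7% and 57.8% of all genes. The relative log expression scaling of DESeq2 in the edgeR fit called 41.8% of all genes higher and 42.6% lower, and DESeq2 itself called 34.5% higher and 34.4% lower of the 15225 genes to which it gave an adjusted p. A gene whose CPM was equal in PBS and LPS libraries is therefore counted as higher with TMM. Of the 87 members, 29 had a positive change with TMM and a negative one with totals alone, and 0 the reverse. Below, TMM values are given, with those from totals alone where a named member changed sign.

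Most cell division genes fell with LPS. Of the 16, 13 were lower and none was higher, with a median of -0.68, and none was higher at an unadjusted p under 0.05 or with DESeq2, which called 10 lower. With relative log expression scaling 1 was higher and 11 were lower. With totals alone all 16 were lower, beside 71.5% of all genes. Tk1 fell by 1.59 ± 0.184 (SE, adjusted p = 4.21e-07), Racgap1 fell by 1.52 ± 0.140 (adjusted p = 2.10e-08) and Kif22 fell by 1.3 ± 0.203 (adjusted p = 1.50e-05). Cdk1 fell by 0.62 ± 0.132 (adjusted p = 0.000347) and Plk1 fell by 0.28 ± 0.120 (adjusted p = 0.0428). Ccnd1 (0.13, but -0.60 with totals alone), Mastl (-0.12) and Ube2c (-0.17) did not pass. Without WT LPS replicate 1, 11 of the 16 were lower.

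Of the 32 other cell cycle genes, 22 were lower and 7 higher with LPS under TMM scaling, with a median of -0.76. This stood beside 43.9% lower and 40.3% higher among all genes tested. With the members included, 29 of the 40 listed genes were lower.

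Matrix and stromal genes went the other way with TMM scaling. Of the 11, 10 were higher and none lower, with a median of 0.61, and none was lower at an unadjusted p under 0.05 or with DESeq2. Aldh1a2 rose by 2.20 ± 0.096 (SE, adjusted p = 7.59e-13), and with totals alone it rose by 1.46. Col1a2 gave 0.72 ± 0.0751 (adjusted p = 1.34e-07), Adgra2 gave 0.82 ± 0.173 (adjusted p = 0.000348), Slit3 gave 0.69 ± 0.244 (adjusted p = 0.0154) and Col5a1 gave 0.61 ± 0.102 (adjusted p = 3.19e-05). With totals alone Col1a2 (-0.02), Slit3 (-0.04) and Col5a1 (-0.12) turned negative without passing, while 3 of the 11, Col6a2 (-0.33), Pdgfra (-0.50) and Rcn3 (-0.69), passed as lower. Aldh1a2 was the only one of the 11 that passed as higher with totals alone. Under upper-quartile scaling 4 of the 11 were higher and none lower. Of the 31 other fibroblast and matrix genes, 24 were higher and 1 was lower with TMM, beside 40.3% higher and 43.9% lower among all genes.

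Of the 6 enzymes of lipid and intermediary metabolism, 4 were lower and 1 was higher, while DESeq2 called 2 lower and 1 higher. Scd2 had the largest fall of all members, by 3.82 ± 0.0845 (adjusted p = 5.58e-17), and Fasn fell by 1.26 ± 0.160 (adjusted p = 1.88e-05). Pcx (-0.46) and Fah (-0.51) were lower and Enpp2 (0.40) was higher, the last turning to -0.33 with totals alone. Mgll did not pass with TMM (0.04 ± 0.0581, adjusted p = 0.480) and was lower with upper-quartile scaling (-0.29) and totals alone (-0.69).

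The transcripts of muscle and nerve divided. Prune2 fell by 2.66 ± 0.0769 (adjusted p = 2.22e-15) and Speg fell by 2.58 ± 0.121 (adjusted p = 2.01e-12). Tenm4, Syn1 and Eef1a2 fell by 1.17, 0.84 and 0.80. Uchl1 was higher at 0.66, but gave -0.07 with totals alone. Des, Flnc and Mt3 did not pass. Des was at 0.11 ± 0.176 (adjusted p = 0.548), and at -0.62 with totals alone. Flnc (0.18) and Mt3 (0.04) turned to -0.55 and -0.68 with totals alone. Among the other members, Nxpe5 fell by 1.86 ± 0.138 (adjusted p = 1.19e-09).

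Some members rose strongly whatever the scaling. Pou3f1 rose by 6.21 ± 0.0962 (adjusted p = 5.02e-19), Mid1 by 3.39 ± 0.0713 (adjusted p = 2.77e-17), Nectin2 by 3.35 ± 0.0687 (adjusted p = 1.94e-17) and Slc13a3 by 2.97 ± 0.15 (adjusted p = 5.43e-12). With totals alone the values were 5.48, 2.66, 2.62 and 2.24. Nectin2, an adhesion protein that is a ligand of lymphocyte receptors, gave 5.91, 5.18 and 5.46 CPM in WT PBS, 2.48, 3.04 and 2.68 in KO PBS, 37.1, 34.1 and 34.5 in WT LPS and 16.7, 15.1 and 17.1 in KO LPS. Its LPS libraries lay above all PBS libraries, and the KO-labelled libraries lay below the WT libraries under each treatment. Fscn1 rose by 2.43 ± 0.0684 (adjusted p = 1.56e-15). Scd2, Prune2, Speg and Nxpe5, by contrast, were lower with every scaling tried, and Nxpe5, of unknown role, gave 14.6, 12.7 and 15.5 CPM in WT PBS, 5.15, 4.69 and 6.57 in KO PBS, 3.22, 2.3 and 2.6 in WT LPS and 1.07, 0.694 and 0.601 in KO LPS.

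Among the 12 macrophage and leukocyte members the response was small and divided with TMM, where 4 were higher and 3 lower. With upper-quartile scaling 1 was higher and 8 were lower, and with totals alone none was higher and 10 were lower, beside 57.8% and 71.5% of all genes lower under these scalings. Fcna (0.29), Cd81 (0.40), Retnla (0.43) and Mgl2 (0.79) were higher with TMM, and Mfge8 (-0.29), Mrc1 (-0.33) and Gata6 (-0.45) were lower. With totals alone Fcna (-0.44), Cd81 (-0.34), Mmp12 (-0.64), Mfge8 (-1.02), Mrc1 (-1.06) and Gata6 (-1.18) were lower, Retnla turned to -0.30 and Mgl2 stayed at 0.06 without passing. Ccl6 had a log2 change of -0.19 ± 0.0849 in WT and 0.21 ± 0.0857 by the KO label (SE), and it was lower under both labels with totals alone. These values share their group means with the differences that chose the gene and are a description.

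Of the higher members, Wdfy1 rose by 1.03 ± 0.0523 (adjusted p = 6.65e-12), Id1 by 0.76 ± 0.105 (adjusted p = 3.56e-06) and Adgb by 1.28 ± 0.152 (adjusted p = 5.86e-07). With totals alone they gave 0.29, 0.03 and 0.55, and Id1 no longer passed. Gm41885 (0.89) and Slc15a2 (0.50) passed as higher as well, but with totals alone Gm41885 was at 0.16 and Slc15a2 at -0.23, and neither passed. Gm3435 (-1.15), Scgb1a1 (-0.63) and Dynlt1b (-0.40) were lower. Nr4a1 (-0.23), Adamts13 (0.17) and Gm41035 (0.27) did not pass. With totals alone Nr4a1 (-0.96) and Adamts13 (-0.56) were lower and Gm41035 turned to -0.46 without passing. Without WT LPS replicate 1, 3 of the 11 were higher and 3 lower, down from 5 higher.

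**Figure D5:**
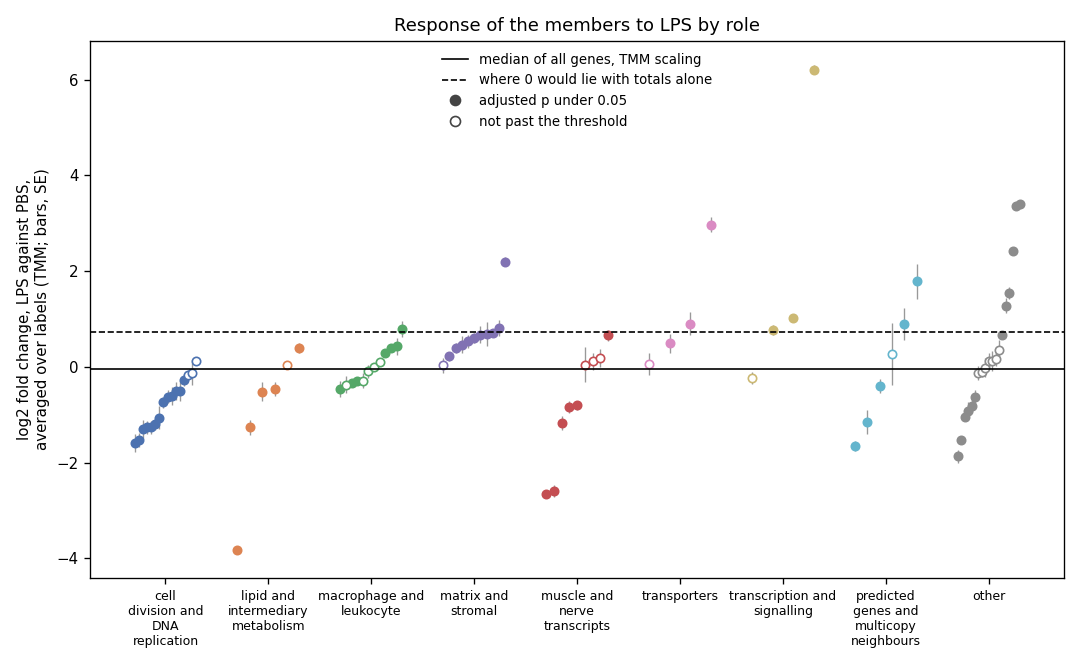
Log2 fold change, LPS against PBS averaged over the labels with TMM scaling, for each of the 87 members by role, with bars for the SE and filled points past an adjusted p of 0.05. The solid line is the median of all genes tested and the dashed line shows where 0 would lie with totals alone, and the cell division genes lie at or below the solid line except Ccnd1 at 0.13.

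The response was also read within each label. These responses use the group means that chose the genes, so their counts are a description of the members and not a test free of the choice. In WT, 28 members were higher and 37 lower with LPS, beside 36.5% and 40.2% of all genes tested (76.7% in either direction). By the KO label 26 were higher and 27 lower, beside 38.8% and 41.1% (79.9%). The 2 responses share no library. They gave 22 members higher under both labels and 25 lower under both, beside 33.9% and 36.2% of all genes tested. Of the others, 17 passed under neither, and Ccl6 passed in opposite directions. A further 6 were higher and 11 lower in WT alone, and in KO-labelled cells alone 3 were higher and 2 lower, which does not show that the responses differ, since that difference was not tested. By non-overlap of the CPM values at totals alone, 45 of the 76 lower members and 4 of the 11 higher ones had all LPS libraries below all PBS libraries under both labels. The LPS libraries lay above under both labels for 7 lower members and 1 higher member. Among the 10004 genes, 67.4% lay below and 16.2% above under both labels. Label by label, these shares were 70.0% and 18.1% in WT and 71.9% and 18.6% by the KO label.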

How the data were processed

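Peritoneal macrophage RNA of 12 cultures was sequenced as single reads of 50 bases. The deposited values are expected counts per gene, which carry decimals in 24.6% to 26.9% of values. Per the labels, the authors' processing notes name Bowtie2, RSEM 1.3.1 and GRCm38.p6, whereas the methods name STAR and HTSeq. Strand use in counting is not given in the sources used here. The members and gene lists were chosen with earlier results of these data known.

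CPM were computed as the count divided by the library total (21546274 to 22017005) times 1000000. For tests, counts were rounded and fitted with edgeR 4.0.16 (R 4.3.3): filterByExpr with a minimum count of 10, TMM, 1 mean for each of 4 groups, and a robust quasi-likelihood test with Benjamini-Hochberg adjustment over the 12064 genes kept. The biological coefficient of variation was 6.99%. Called means an adjusted p under 0.05. On simulated counts for the averaged LPS contrast (11861 genes, 200 of them changed 2-fold), 99.5% of the changed genes and 0.0772% of the unchanged ones were called. In the simulation as many genes rose as fell, few changed, and every gene had the same spread. It therefore does not cover the shift in scaling between PBS and LPS libraries or an outlying library. DESeq2 1.42.0, other scalings, no filter, other rule limits, a replicate block and leaving out each library were tried.

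Values in every library were given for the 11 higher members, the 14 lower ones with the largest smaller ratio, the 4 with the largest LPS effect each way, and up to 4 from each list by mean CPM. One of these is not reported here and not drawn in the heat map. Roles were assigned by hand. Promoters came from RefSeq. Figures used matplotlib 3.10.9. The floor of 3 counts covers counting error only.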

Additional observations from a re-analysis of the deposited data

How the results depend on the processing

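The number of members followed the limits that define them. With a 3-fold limit 3 genes were higher and 13 lower, with 1.5-fold 84 and 256, and with a higher mean of at least 5 CPM 4 and 24. Leaving out 1 library at a time gave 10 to 13 higher and 69 to 87 lower. TMM scaling of the CPM gave 14 and 78, of which 11 and 65 were among the members. Some lower members had a log2 difference between labels under LPS of less than 1 in size in the TMM fit. Among them were Plk1 (-0.96), Mmp12 (-0.98), Ccl6 (-0.98) and Fasn (-0.99).

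Scaling decided many LPS directions. Averaged over labels, upper-quartile scaling gave 18 members higher and 45 lower, and totals alone 10 higher and 59 lower. The shares of all genes for these are given above. In WT, upper-quartile scaling gave 14 higher and 44 lower, beside 3146 and 6520 of the 12064 genes tested. Totals alone gave 9 and 57 in WT, beside 2223 and 8247. By the KO label, upper-quartile scaling gave 15 higher and 36 lower, beside 3345 and 6557 of all genes. Totals alone gave 9 and 55 by that label, beside 2202 and 8387. With totals alone the log2 change turned negative for 29 members, which among the 47 named by rule were Adamts13 (-0.56), Atp9a (-0.66), Cd81 (-0.34), Col1a2 (-0.017), Col5a1 (-0.12), Col6a2 (-0.33), Des (-0.62), Gm41035 (-0.46), Lrmda (-0.61), Mgll (-0.69), Mt3 (-0.68), Pdgfra (-0.50), Retnla (-0.30), Slc15a2 (-0.23) and Slit3 (-0.039). With upper-quartile scaling 8 of these were negative, namely Adamts13 (-0.16), Atp9a (-0.26), Des (-0.22), Gm41035 (-0.063), Lrmda (-0.21), Mgll (-0.29), Mt3 (-0.28) and Pdgfra (-0.10). Of the 47 named members, 24 kept their side of the threshold under every alternative that gave a value for them, with no change of sign where they passed it.

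Leaving out 1 library at a time gave 26 to 30 members higher and 31 to 35 lower on average, 23 to 30 and 33 to 37 in WT, and 20 to 27 and 22 to 27 by the KO label. Between PBS and LPS libraries of a label, correlations of deviations ran from -0.028 to 0.28 for replicates of the same number. For replicates of unlike number they ran from -0.33 to 0.22. Between labels, those of the same number ran from -0.34 to 0.32. Whether the replicate numbers pair the samples is not settled by these values. The replicate block gave each number the same effect in all groups, so it does not test pairing within a label. With the replicate block 30 members were higher and 33 lower on average, 27 and 36 in WT, and 25 and 27 by the KO label. Levels under about 1 CPM rest on few counts and limit what can be said of single genes such as Gm16867 and Mt3.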
